A study of Homo sapiens with 15 samples.

Results

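The transcripts of 57 genes that carry human cells through G2 and mitosis were followed in MCF10A cells grown with little or ample glutamine. MCF10A is an immortalised, non-tumorigenic human breast epithelial line. The genes were taken by symbol, as a list of cyclins, kinases, checkpoint proteins, kinetochore parts, motors and condensins, out of the 62754 genes of the count table. All 57 were found, and 56 of them were among the 13828 genes with enough counts to test. Cells of WT genotype were grown with glutamine limited to 0.04, to 0.12, to 0.20 or to 0.28 mM, or in full medium with 2.5 mM. Each of these 5 groups had 3 biological replicates, which gives 15 RNA libraries. The base medium was a glutamine-free form of DMEM/F12 for the limited groups, and the line was kept with mammary growth supplements, cholera toxin and antibiotics. How long the cells were limited, and what the replicate numbers stand for, is not given in the sources used here. Nothing in the labels says whether the replicates were separate cultures, so the p-values measure the spread between these libraries. Where libraries were compared within their replicate number, they measure the spread left once differences between replicate numbers are removed.

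Entry into mitosis is driven by CDK1 bound to cyclin A or B and is switched on by CDC25 phosphatases. The spindle checkpoint then holds the anaphase-promoting complex until all kinetochores are attached, after which CDC20 lets that complex mark securin and cyclin B for destruction. Most of these genes are transcribed late in the cell cycle by B-MYB, FOXM1 and the MuvB complex, whose DNA element in the promoter is the cell cycle genes homology region (CHR), often near CCAAT boxes bound by NF-Y.

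Promoters of a pair of genes that fell in limited glutamine (CDC20 and PLK1) are shown. Beside them are promoters of a pair that rose at 0.20 mM (CDK1 and KIF20B). All these promoters were picked as examples that hold both elements, so they cannot show whether the elements differ between genes that fell and rose. They are RefSeq sequences of build GRCh38.p14, 5′ to 3′ on the gene's strand, from 250 bases before to 50 after the start of the gene. Capitals mark the CHR letters TTTGAA and the CCAAT box, each on either strand, so that TTCAAA and ATTGG are the same elements reversed. The windows are chr1:43358731-43359030, plus strand, for CDC20, chr16:23678639-23678938, plus strand, for PLK1, chr10:60778081-60778380, plus strand, for CDK1, and chr10:89701340-89701639, plus strand, for KIF20B.
CDC20: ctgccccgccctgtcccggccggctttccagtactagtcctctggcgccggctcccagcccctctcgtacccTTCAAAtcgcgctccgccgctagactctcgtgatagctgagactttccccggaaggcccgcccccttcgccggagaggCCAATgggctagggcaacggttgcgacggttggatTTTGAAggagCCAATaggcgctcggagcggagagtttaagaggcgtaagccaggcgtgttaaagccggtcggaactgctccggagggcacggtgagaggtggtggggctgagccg
PLK1: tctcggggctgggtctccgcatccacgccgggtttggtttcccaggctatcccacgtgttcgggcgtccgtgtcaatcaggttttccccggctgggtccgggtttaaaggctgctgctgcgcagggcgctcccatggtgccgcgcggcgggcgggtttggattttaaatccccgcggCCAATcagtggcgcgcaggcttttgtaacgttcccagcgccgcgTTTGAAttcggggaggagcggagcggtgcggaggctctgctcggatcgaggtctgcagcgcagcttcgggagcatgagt
CDK1: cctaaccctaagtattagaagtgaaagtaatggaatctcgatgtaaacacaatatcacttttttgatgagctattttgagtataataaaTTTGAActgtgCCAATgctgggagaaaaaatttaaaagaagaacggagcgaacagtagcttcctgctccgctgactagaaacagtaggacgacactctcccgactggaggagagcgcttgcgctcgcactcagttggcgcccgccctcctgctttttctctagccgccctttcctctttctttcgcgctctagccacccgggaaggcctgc
KIF20B: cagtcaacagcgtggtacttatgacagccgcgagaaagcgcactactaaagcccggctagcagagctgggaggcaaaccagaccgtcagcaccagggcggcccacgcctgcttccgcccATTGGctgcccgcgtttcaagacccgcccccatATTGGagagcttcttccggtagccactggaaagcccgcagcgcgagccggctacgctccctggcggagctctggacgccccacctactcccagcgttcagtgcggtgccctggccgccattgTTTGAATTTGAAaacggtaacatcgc

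A promoter entry was found for 50 of the 57 genes. TTTGAA was in 35 of the 50 windows, 70% of them, and in 15.4% of the 27305 windows of all genes in the table. CCAAT was in 39, or 78%, and in 35.7% of all windows. Both were in 29, or 58%, and in 6.08% of all windows. The elements may overlap, as in CDCA8 and MKI67, where TTTGAATTGG holds both. Of the genes that fell in at least 1 comparison with full medium, 14 had an entry, with TTTGAA in 9 and CCAAT in 14. Of those that rose, 10 had an entry, with TTTGAA in 8 and CCAAT in 6. A match describes the letters in the window and does not show that a factor binds there.

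Depth ranged from 3704170 to 13361406 gene counts per library, and the shallowest library was 0.04 mM replicate 3. Mitochondrial rRNA took 2.97% of its counts and 1.62% in 0.12 mM replicate 3, with at most 0.402% in the other 13. Markers of MCF10A and basal epithelium, a list that also holds KRT8, KRT18, CDH1 and EGFR, were all detected (12 of 12). Their summed level, in counts scaled to library size (CPM), was 18223 to 30756 CPM in limited and 20528 to 31062 CPM in full medium. In every group this sum was highest in replicate 1 and lowest in replicate 3. Markers of other cell types were low. Fibroblast genes summed to 37.5 to 61.0 CPM in limited glutamine and to 33.3 to 45.8 CPM in full medium, with 6 of 7 detected. Endothelial genes, with 3 of 5 detected, summed to 4.99 to 12.2 CPM in limited glutamine and 3.77 to 5.68 CPM in full medium. Luminal genes, with 6 of 6 detected, summed to 20.5 to 33.7 CPM in limited glutamine and 19.2 to 26.4 CPM in full medium. Immune genes, with 4 of 7 detected, summed to 1.15 to 2.86 CPM in limited glutamine and 1.57 to 1.81 CPM in full medium. LUM among the fibroblast genes and CDH5 and CLDN5 among the endothelial genes were at 0 in every library. The part of any of these in the results below was not tested.

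Levels differed widely among the genes. Per kilobase of the merged exons of each gene, CDC20 stood highest in full medium at 177 ± 10.9 CPM (SD, n = 3). Next came cyclin B1 (CCNB1) at 95.9 ± 17.7, the spindle assembly factor TPX2 at 94.9 ± 5.17 and the ubiquitin-conjugating enzyme UBE2C at 93.7 ± 9.19 CPM per kilobase. The gaps among these last genes are smaller than their SDs. At the low end stood the kinesin KIF18A at 6.78 ± 1.66 and the kinetochore protein SPC25 at 6.94 ± 1.18 CPM per kilobase, which do not differ beyond their spread. PRC1 and NUSAP1, which bundle spindle microtubules, had 0.364 ± 0.182 and 0.233 ± 0.0462 CPM per kilobase. NUSAP1 had 38 counts in all libraries together and was the 1 gene not tested. Exons of other annotated genes overlap 62.2% of NUSAP1 and 58.4% of PRC1, so their counts are uncertain.

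Once libraries were compared within their replicate number, 18 of the 56 genes fell in at least 1 comparison of limited glutamine with full medium, 11 rose in at least 1 and 27 passed in none. The matching shares of all genes across the comparisons were not counted, so these numbers have no background beside them. In the planned fit, which ignores the replicate number, none of the 56 passed at any concentration. The calls below therefore rest on the replicate number as a block in the quasi-likelihood test of edgeR. Rose or fell means a Benjamini-Hochberg adjusted p over all 13828 genes under 0.05. Beside a call, mostly its losses without single libraries are given, and not all of those under other settings of the blocked fit. The calls that passed in all alternatives with the block are listed near the end. At 0.04 mM 17 of the 56 genes fell and 1 rose, where 6.23% of all genes tested fell and 7.21% rose. Without full medium replicate 3, 10 fell and 5 rose there, and without 0.04 mM replicate 2, 10 fell and none rose. At 0.12 mM 12 fell and none rose, against 3.9% and 4.41% of all genes. At 0.20 mM 11 fell and 11 rose, against 7.15% and 7.67%, and this split moved with single libraries. Without full medium replicate 1, 14 fell and 4 rose, and without full medium replicate 3, 6 fell and 15 rose. Without 0.20 mM replicate 1, 7 fell and 4 rose, and without 0.20 mM replicate 3, 6 fell and 7 rose. Without the third replicates of all groups 4 fell and 11 rose. At 0.28 mM 3 fell and none rose, against 0.846% and 1.23%. The median log2 change of the 56 was -0.16 at 0.04 mM, -0.11 at 0.12 mM, 0.0040 at 0.20 mM and -0.022 at 0.28 mM, while the median of all genes lay between 6.75e-05 and 0.0064. Libraries of the 2 groups did not overlap, with the limited one lower or higher, for 11 and 1 of the 56 genes at 0.04 mM (8.21% and 6.95% of all genes), 10 and 0 at 0.12 mM (6.66% and 5.53%), 8 and 1 at 0.20 mM (8.4% and 7.15%) and 3 and 0 at 0.28 mM (4.95% and 4.34%). All 4 comparisons share the same 3 full-medium libraries. In bulk RNA, fewer cells in G2 or mitosis and less RNA per cell cannot be told apart.

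Without the block DESeq2, like edgeR, called none of the 56 against full medium, and of all genes edgeR called 0.0434% at 0.04 mM, 0.0145% at 0.20 mM and none at 0.12 or 0.28 mM. At an unadjusted p under 0.05 in edgeR without the block there were 10 at 0.04 mM, 6 at 0.12 mM, 6 at 0.20 mM and 2 at 0.28 mM, where 11.6%, 8.03%, 10.2% and 4.45% of all genes did so. With no filter on low counts CDC20 passed without the block at 0.04 mM (-0.70, edgeR adjusted p = 1.07e-04), 0.12 mM (-0.60, 0.00435) and 0.20 mM (-0.55, 0.0126).

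**Figure D1:**
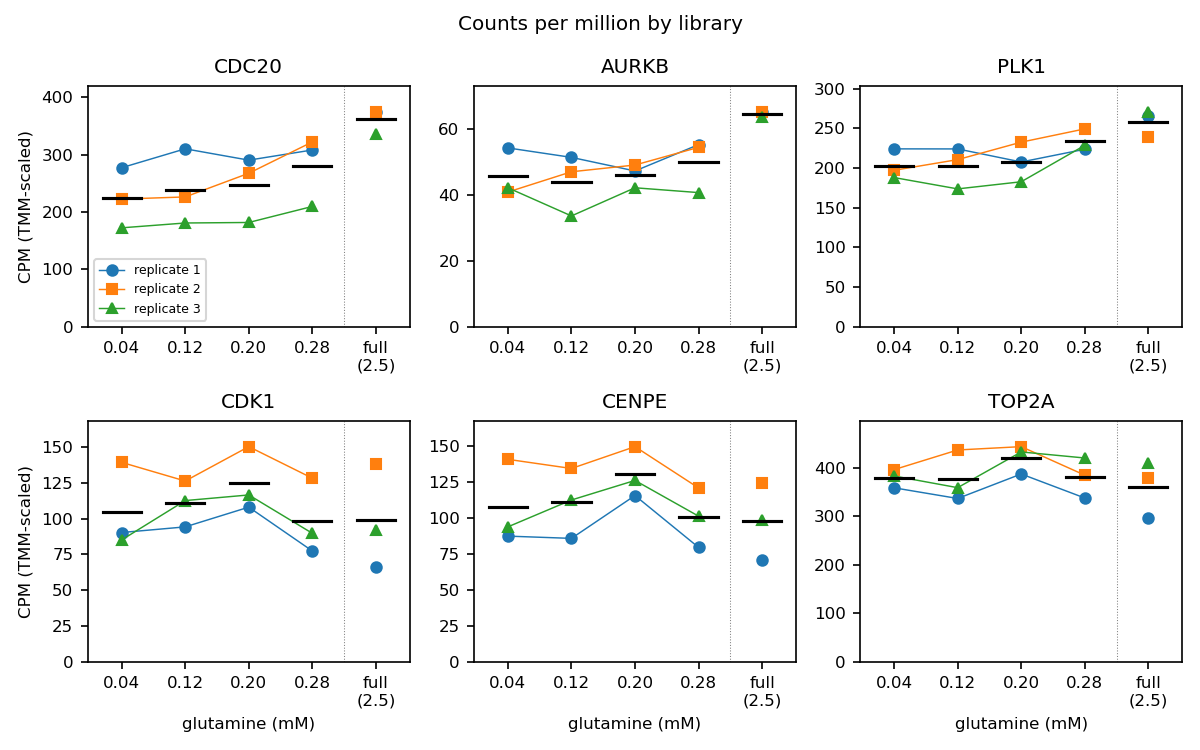
CPM (library-scaled counts, vertical axis) of 6 genes in each library by glutamine concentration (mM), with full medium at the right. Symbols and thin lines mark the replicate number and bars the mean of 3 libraries. CDC20 and AURKB lie lower in all limited libraries than in any full-medium one, while CDK1 and CENPE are higher at 0.20 mM than in full medium within each replicate number.

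The steepest fall was in the anaphase group. CDC20 (ENSG00000117399, chromosome 1, 43358981 to 43363203), the activator of the anaphase-promoting complex, had 277, 222 and 172 CPM at 0.04 mM, 310.0, 226 and 181 CPM at 0.12 mM, 290.2, 267 and 182 CPM at 0.20 mM and 308, 322 and 209.6 CPM at 0.28 mM, against 374, 373 and 336 CPM in full medium. Every limited library lay below every full-medium library, and replicate 3 was the lowest at each limited concentration. Its log2 change was -0.71 (SE 0.0879, adjusted p = 2.50e-06) at 0.04 mM, -0.63 (SE 0.0867, adjusted p = 4.04e-05) at 0.12 mM, -0.58 (SE 0.0859, adjusted p = 4.26e-05) at 0.20 mM and -0.39 (SE 0.0856, adjusted p = 0.0144) at 0.28 mM. The first 3 calls held without each library in turn, and that at 0.28 mM was lost without 0.28 mM replicate 1 or 3 or full medium replicate 3 (adjusted p up to 0.188).

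UBE2C (ENSG00000175063, chromosome 20, 45812644 to 45816952), which loads ubiquitin for the same complex, had 106, 81.6 and 74.6 CPM at 0.04 mM, 111, 95.1 and 83 CPM at 0.12 mM, 100.4, 101 and 81.8 CPM at 0.20 mM and 115, 116 and 87.8 CPM at 0.28 mM, against 134, 111 and 117 CPM in full medium. At 0.04 and 0.20 mM its libraries did not overlap those of full medium, and at 0.12 mM 1 library did. It changed by -0.46 (SE 0.0821, adjusted p = 2.83e-04) at 0.04 mM, -0.32 (SE 0.0797, adjusted p = 0.00918) at 0.12 mM and -0.35 (SE 0.0788, adjusted p = 0.00258) at 0.20 mM. The 0.12 mM call was lost without full medium replicate 3 (adjusted p up to 0.0814). At 0.28 mM it had -0.19 (SE 0.0784, adjusted p = 0.22). The chain-elongating UBE2S had -0.16 and securin (PTTG1), which holds separase until anaphase, -0.23 at 0.04 mM, and neither passed the test there (edgeR adjusted p = 0.151 and 0.0711).

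In the chromosomal passenger complex, which corrects faulty kinetochore attachments, 3 of 4 genes fell at 0.04 mM, 2 at 0.12 mM, 3 at 0.20 mM and 1 at 0.28 mM. Of all genes 6.23%, 3.9%, 7.15% and 0.846% fell at these concentrations. Its kinase AURKB (ENSG00000178999, chromosome 17, 8204731 to 8210575) had 54.2, 40.9 and 42.2 CPM at 0.04 mM, 51.4, 47 and 33.6 CPM at 0.12 mM, 47.3, 49.1 and 42.2 CPM at 0.20 mM and 55.2, 54.4 and 40.7 CPM at 0.28 mM, against 65.2, 65 and 63.6 CPM in full medium. All 12 limited libraries lay below the 3 full-medium ones, which were within 2 CPM of each other. AURKB changed by -0.50 (SE 0.101, adjusted p = 0.00115) at 0.04 mM, -0.55 (SE 0.0984, adjusted p = 6.71e-04) at 0.12 mM, -0.49 (SE 0.0964, adjusted p = 9.68e-04) at 0.20 mM and -0.37 (SE 0.0959, adjusted p = 0.0335) at 0.28 mM. AURKB and CDC20 were the 2 genes that fell in all 4 comparisons, though the 0.28 mM call of AURKB was lost without 0.28 mM replicate 1 or 3 or full medium replicate 2 or 3 (adjusted p up to 0.288). How many of all genes fell in all 4 was not counted.

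The passenger subunit borealin (CDCA8) had 66.5, 61 and 45.7 CPM at 0.04 mM, 66.8, 59.7 and 53.9 CPM at 0.12 mM, 63.8, 58.4 and 51.6 CPM at 0.20 mM and 66.5, 72.6 and 59.9 CPM at 0.28 mM, against 76.4, 77.8 and 66.3 CPM in full medium, a change of -0.34 (SE 0.0835, adjusted p = 0.00659) at 0.04 mM, -0.29 (SE 0.0811, adjusted p = 0.0224) at 0.12 mM and -0.34 (SE 0.08, adjusted p = 0.00395) at 0.20 mM. Its 0.12 mM call was lost without 0.12 mM replicate 2 or full medium replicate 2 or 3 (adjusted p up to 0.136). Survivin (BIRC5) had 162, 147 and 104 CPM at 0.04 mM, 167, 150.1 and 124 CPM at 0.12 mM, 152, 167 and 122 CPM at 0.20 mM and 161, 176 and 124 CPM at 0.28 mM, against 171, 174 and 142 CPM in full medium. Its groups overlapped at every concentration and it passed the test at 0.04 mM, with a log2 change of -0.24 (SE 0.0731, adjusted p = 0.0268). That call was lost without 0.04 mM replicate 2 or 3 or full medium replicate 2 or 3 (adjusted p up to 0.142), and in 6 of 10 other alternatives with the block (adjusted p up to 0.329). The scaffold INCENP had 154, 119 and 95.1 CPM at 0.04 mM, 135, 111 and 107 CPM at 0.12 mM, 134, 115 and 96.7 CPM at 0.20 mM and 158, 129 and 111 CPM at 0.28 mM, against 166, 119.9 and 123 CPM in full medium, with replicate 1 the highest in every group, and changed by -0.24 (SE 0.071, adjusted p = 0.0196) at 0.20 mM. That call was lost without 0.20 mM replicate 1 or 3 or full medium replicate 1 or 3 (adjusted p up to 0.122), and in 4 of 10 other alternatives with the block (adjusted p up to 0.283).

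Among genes of mitotic entry, 4 of 9 fell at 0.04 mM, 3 at 0.12 mM and 2 at 0.20 mM, and 1 rose at 0.20 mM. Of all genes 6.23%, 3.9% and 7.15% fell there, and 7.67% rose at 0.20 mM. CDC25A, a phosphatase that removes the brake on CDK1 and CDK2, had 83.7, 71.9 and 49.2 CPM at 0.04 mM, 83.5, 69.7 and 50.3 CPM at 0.12 mM, 87.9, 78.2 and 56.2 CPM at 0.20 mM and 90.4, 86.4 and 52.6 CPM at 0.28 mM, against 97.7, 97.8 and 72.7 CPM in full medium. Replicate 3 was the lowest in each group, and within each replicate number the limited libraries lay below full medium. It changed by -0.40 (SE 0.081, adjusted p = 0.00121) at 0.04 mM, -0.41 (SE 0.079, adjusted p = 0.00137) at 0.12 mM and -0.28 (SE 0.0772, adjusted p = 0.0141) at 0.20 mM, where the call was lost without 0.20 mM replicate 1 or 2 or full medium replicate 2 or 3 (adjusted p up to 0.0909). Cyclin F (CCNF), which despite its name marks proteins for degradation, had 107, 103 and 83.5 CPM at 0.04 mM, 111, 105 and 94.2 CPM at 0.12 mM, 115, 112 and 96.3 CPM at 0.20 mM and 113, 120.0 and 104 CPM at 0.28 mM, against 133, 115 and 124 CPM in full medium. The 0.04 mM and 0.12 mM libraries did not overlap those of full medium, with -0.34 (SE 0.0748, adjusted p = 0.00258) and -0.27 (SE 0.073, adjusted p = 0.0192). The 0.12 mM call was lost without 0.12 mM replicate 1, 2 or 3 or full medium replicate 3 (adjusted p up to 0.127). Among 10 other alternatives with the block, 2 lost the 0.04 mM call of CCNF (adjusted p up to 0.107). Its 0.12 mM call was lost in 3 (adjusted p up to 0.192). CDCA3 had 40.9, 35.3 and 25.1 CPM at 0.04 mM, 39.1, 35.5 and 27.2 CPM at 0.12 mM, 36.4, 33.3 and 26.3 CPM at 0.20 mM and 38.9, 37 and 31.8 CPM at 0.28 mM, against 48.9, 41 and 39.4 CPM in full medium, and changed by -0.34 (SE 0.0988, adjusted p = 0.0198) at 0.04 mM, -0.34 (SE 0.0958, adjusted p = 0.0215) at 0.12 mM and -0.43 (SE 0.0946, adjusted p = 0.00224) at 0.20 mM. The call of CDCA3 at 0.04 mM was lost without 0.04 mM replicate 2 or 3 or full medium replicate 3 (adjusted p up to 0.0982) and that at 0.12 mM without 0.12 mM replicate 1, 2 or 3 or full medium replicate 3 (adjusted p up to 0.109).

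The cyclins that partner CDK1 were less clear. CCNB1 had 227, 218 and 148 CPM at 0.04 mM, 219, 225 and 179.9 CPM at 0.12 mM, 222, 253 and 195 CPM at 0.20 mM and 221, 266 and 192 CPM at 0.28 mM, against 195, 284 and 256 CPM in full medium. Full medium replicate 1 was lower than every 0.04 mM library except replicate 3, so the groups overlapped, and the fall at 0.04 mM was -0.31 (SE 0.0972, adjusted p = 0.033). That call was lost in 4 of 6 fits that left out a library, those without 0.04 mM or full medium replicates 2 or 3 (adjusted p up to 0.341). It was also lost in 5 of 10 other alternatives with the block, DESeq2 and ERCC scaling among them (adjusted p up to 0.707). Cyclin A2 (CCNA2), with 103, 133 and 90 CPM at 0.04 mM, 106, 129 and 109 CPM at 0.12 mM, 117, 130.0 and 119 CPM at 0.20 mM and 97.4, 141 and 105 CPM at 0.28 mM, against 80.5, 137 and 136 CPM in full medium, passed the test nowhere, and its log2 change lay between -0.08 at 0.04 mM and 0.08 at 0.20 mM. CCNB2, CDC25B and CDC25C passed nowhere either, with -0.25, -0.19 and -0.18 at 0.04 mM.

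PLK1 (ENSG00000166851, chromosome 16, 23678889 to 23690367), a kinase needed from mitotic entry to cytokinesis, had 224, 197 and 188 CPM at 0.04 mM, 224, 211 and 174 CPM at 0.12 mM, 208, 233 and 183 CPM at 0.20 mM and 224, 249 and 229 CPM at 0.28 mM, against 266, 239 and 271 CPM in full medium. It lay below full medium in all libraries at 0.04, 0.12 and 0.20 mM and changed by -0.35 (SE 0.0801, adjusted p = 0.00354), -0.35 (SE 0.0792, adjusted p = 0.00477) and -0.32 (SE 0.0786, adjusted p = 0.00555) there. The 0.12 mM call was lost without 0.12 mM replicate 3 or full medium replicate 3 (adjusted p up to 0.0561) and the 0.20 mM call without 0.20 mM replicate 1 or 3 or full medium replicate 3 (adjusted p up to 0.0633). Among 10 other alternatives with the block, 2 lost the 0.04 mM call (adjusted p up to 0.0944). The 0.12 mM and 0.20 mM calls were lost in 3 each (up to 0.21 and 0.206). The kinase AURKA, which matures the centrosomes, had 131, 128 and 91.1 CPM at 0.04 mM, 141, 119 and 99.1 CPM at 0.12 mM, 144, 136 and 119 CPM at 0.20 mM and 135, 145 and 118 CPM at 0.28 mM, against 131, 139 and 128 CPM in full medium. Its groups overlapped throughout, and its change was -0.18 (SE 0.0801, adjusted p = 0.129) at 0.04 mM and 0.01 (SE 0.0772, adjusted p = 0.976) at 0.20 mM.

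FOXM1, the transcription factor of this programme, had 244, 226 and 208 CPM at 0.04 mM, 243, 262 and 187 CPM at 0.12 mM, 244, 249 and 181 CPM at 0.20 mM and 260.2, 270.2 and 221 CPM at 0.28 mM, against 304, 260.4 and 256 CPM in full medium. The 0.04 mM and 0.20 mM libraries all lay below full medium, while 1 library at 0.12 mM lay above its lowest. FOXM1 changed by -0.28 (SE 0.0733, adjusted p = 0.00951) at 0.04 mM, -0.25 (SE 0.0724, adjusted p = 0.0246) at 0.12 mM and -0.29 (SE 0.072, adjusted p = 0.00561) at 0.20 mM. These calls were lost at 0.04 mM without 0.04 mM replicate 2 or full medium replicate 3 (adjusted p up to 0.0968), at 0.12 mM without 0.12 mM replicate 1 or 3 or full medium replicate 1 or 3 (adjusted p up to 0.153) and at 0.20 mM without 0.20 mM replicate 3 (adjusted p up to 0.0619). Among 10 other alternatives with the block, 2 lost the 0.04 mM call (adjusted p up to 0.195). The 0.12 mM and 0.20 mM calls were lost in 3 each (up to 0.356 and 0.188). Exons of ITFG2 overlap 15.9% of FOXM1, and ITFG2 had 2275 counts in all against 33020 for FOXM1.

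Kinesins and spindle factors split. KIF20A, a motor of the central spindle, had 162, 126 and 105 CPM at 0.04 mM, 166, 131 and 132 CPM at 0.12 mM, 174, 145 and 137 CPM at 0.20 mM and 179, 161 and 145 CPM at 0.28 mM, against 183, 168 and 192 CPM in full medium, and changed by -0.47 (SE 0.0816, adjusted p = 2.23e-04) at 0.04 mM, -0.35 (SE 0.0798, adjusted p = 0.00533) at 0.12 mM and -0.26 (SE 0.0788, adjusted p = 0.0229) at 0.20 mM. Its 0.12 mM call was lost without full medium replicate 3 (adjusted p up to 0.0773) and its 0.20 mM call without 0.20 mM replicate 1, 2 or 3 or full medium replicate 3 (adjusted p up to 0.265). HMMR, a spindle and hyaluronan-binding protein, had 65, 75.1 and 51.6 CPM at 0.04 mM, 69.1, 75.5 and 62.5 CPM at 0.12 mM, 78.6, 92.9 and 73.7 CPM at 0.20 mM and 66.6, 84.1 and 53.6 CPM at 0.28 mM, against 77.9, 106 and 82.8 CPM in full medium. It changed by -0.46 (SE 0.0848, adjusted p = 3.98e-04) at 0.04 mM, -0.36 (SE 0.0822, adjusted p = 0.00552) at 0.12 mM and -0.39 (SE 0.0811, adjusted p = 0.0114) at 0.28 mM, but had -0.11 (SE 0.08, adjusted p = 0.365) at 0.20 mM. The HMMR call at 0.12 mM was lost without 0.12 mM replicate 2 (adjusted p up to 0.0658) and that at 0.28 mM without 0.28 mM replicate 1 or 3 or full medium replicate 2 or 3 (adjusted p up to 0.198). TPX2 and GTSE1, both spindle factors, fell at 0.04 mM, with log2 changes of -0.25 (SE 0.0744, adjusted p = 0.0237) and -0.26 (SE 0.0857, adjusted p = 0.0428). The condensin subunit NCAPH fell at 0.04 mM and 0.12 mM (-0.36 and -0.26), and its 0.12 mM call was the weakest there (edgeR adjusted p = 0.0472). How the calls of TPX2, GTSE1 and NCAPH fared without single libraries is not given here. The proliferation antigen MKI67, which coats mitotic chromosomes, had 1058, 771 and 745 CPM at 0.04 mM, 1002, 923 and 701 CPM at 0.12 mM, 1017, 804 and 700.2 CPM at 0.20 mM and 1143, 957 and 889 CPM at 0.28 mM, against 1202, 895 and 1028 CPM in full medium. It changed by -0.29 (SE 0.0836, adjusted p = 0.0177) at 0.04 mM and -0.32 (SE 0.0834, adjusted p = 0.00891) at 0.20 mM, with overlapping groups, and lost these calls at 0.04 mM without 0.04 mM replicate 2 or 3 or full medium replicate 3 (adjusted p up to 0.162) and at 0.20 mM without 0.20 mM replicate 3 or full medium replicate 3 (adjusted p up to 0.0897).

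**Figure D2:**
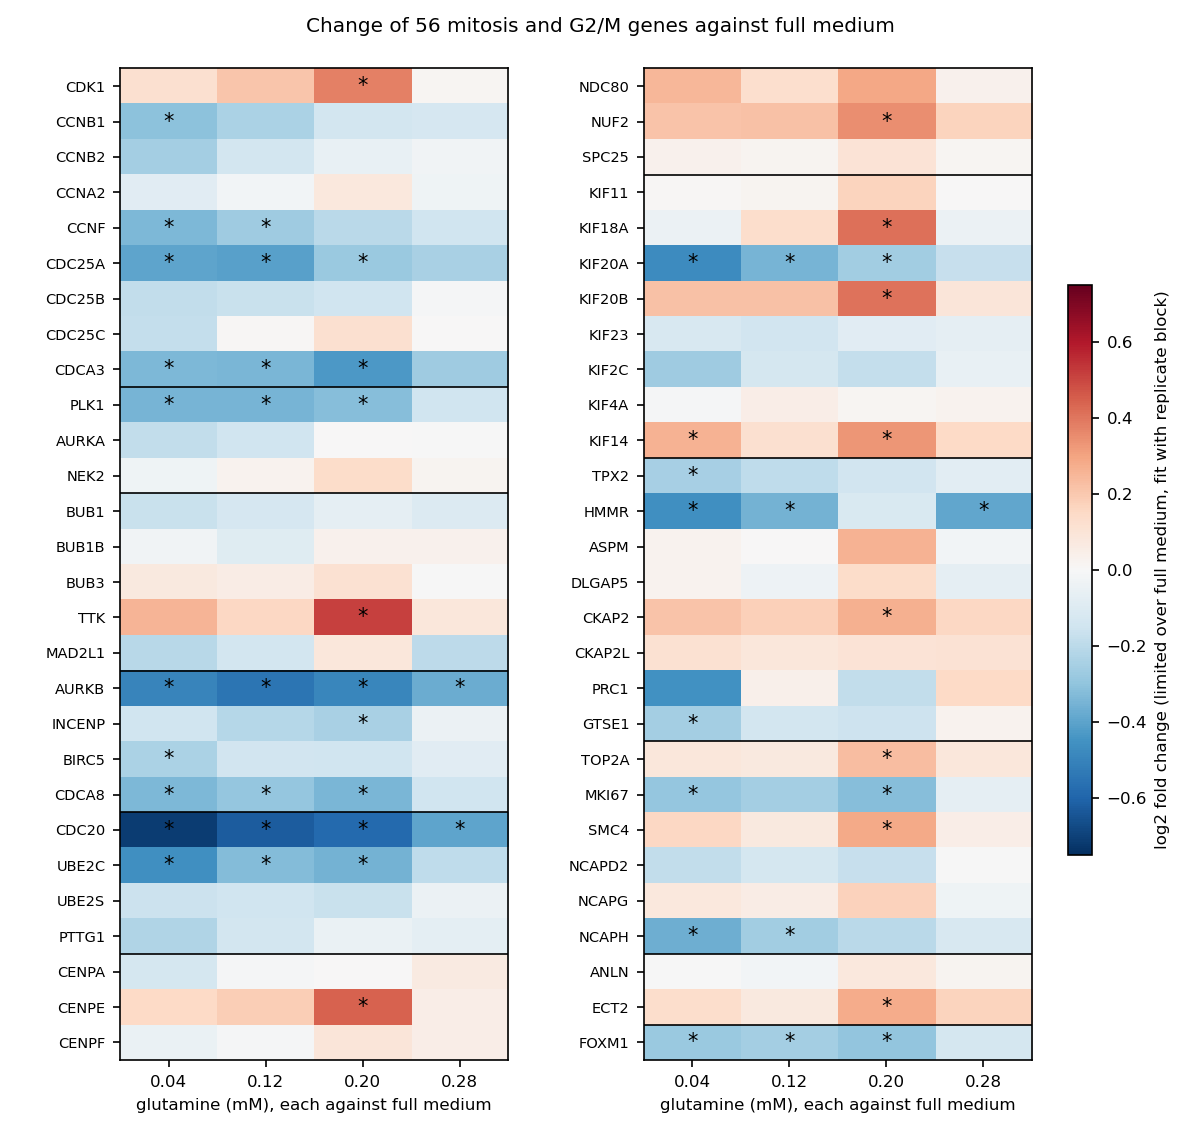
Log2 fold change over full medium (colour, fit with the replicate block) of the 56 tested genes in rows, ordered by role with black lines between roles, at 4 glutamine concentrations (mM, horizontal axis). Stars mark edgeR adjusted p under 0.05. CDC20 reaches -0.71 at 0.04 mM, and the 11 genes that rose at 0.20 mM lie between 0.23 and 0.51.

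At 0.20 mM 11 genes rose. They were CDK1, the checkpoint kinase TTK, the kinetochore proteins CENPE and NUF2, the kinesins KIF14, KIF18A and KIF20B, CKAP2 of the spindle, topoisomerase TOP2A, the condensin SMC4 and the cytokinesis factor ECT2. All 11 were higher at 0.20 mM in 3 of 3 pairs that share a replicate number. The blocked fit called them from these same pairs, so this is no separate support. KIF18A was the 1 gene whose libraries did not overlap those of full medium, where 7.15% of all genes were higher without overlap. KIF14 rose at 0.04 mM as well (0.26 (SE 0.0704, adjusted p = 0.0125)), a call lost without 0.04 mM replicate 1 or 2 or full medium replicate 2 (adjusted p up to 0.154).

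CDK1 (ENSG00000170312, chromosome 10, 60778331 to 60794852) had 90.3, 139 and 85.1 CPM at 0.04 mM, 94.2, 126 and 113 CPM at 0.12 mM, 108, 150.3 and 117 CPM at 0.20 mM and 77.4, 128 and 89.8 CPM at 0.28 mM, against 66.5, 139 and 91.7 CPM in full medium. Replicate 2 was the highest in every group, and full medium replicate 1 the lowest library of all. At 0.20 mM it changed by 0.38 (SE 0.0889, adjusted p = 0.00424), which was lost without 0.20 mM or full medium replicate 1 (adjusted p up to 0.0552). CENPE, a motor that moves chromosomes to the spindle equator, had 87.3, 141 and 93.8 CPM at 0.04 mM, 85.8, 134 and 112 CPM at 0.12 mM, 116, 149.6 and 126 CPM at 0.20 mM and 79.5, 121 and 101 CPM at 0.28 mM, against 70.5, 125 and 98.7 CPM in full medium, a change of 0.44 (SE 0.0773, adjusted p = 2.70e-04) at 0.20 mM. TTK, which starts the spindle checkpoint, had 34.3, 52.8 and 41.1 CPM at 0.04 mM, 28.5, 53.6 and 41.4 CPM at 0.12 mM, 37.9, 65.6 and 54.1 CPM at 0.20 mM and 26.7, 43.8 and 46.6 CPM at 0.28 mM, against 19.7, 53.1 and 41.2 CPM in full medium, a change of 0.51 (SE 0.112, adjusted p = 0.00225) at 0.20 mM. The groups of all 3 genes overlapped.

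KIF20B, a kinesin of cytokinesis, had 78.2, 109 and 88.9 CPM at 0.04 mM, 70.8, 115 and 94.8 CPM at 0.12 mM, 85.4, 128 and 105 CPM at 0.20 mM and 65.7, 95 and 94.5 CPM at 0.28 mM, against 57.3, 95.3 and 89.1 CPM in full medium, and KIF14, another, 158, 203 and 153 CPM at 0.04 mM, 128, 194 and 149.9 CPM at 0.12 mM, 159, 208 and 176 CPM at 0.20 mM and 131, 182 and 168 CPM at 0.28 mM, against 122, 167 and 144 CPM in full medium. At 0.20 mM they changed by 0.41 (SE 0.0773, adjusted p = 6.15e-04) and 0.33 (SE 0.0688, adjusted p = 0.00147). KIF18A, which limits chromosome swings at metaphase, had 29.4, 34 and 24 CPM at 0.04 mM, 27.2, 39.1 and 37.6 CPM at 0.12 mM, 36.9, 47.7 and 39.9 CPM at 0.20 mM and 25, 33.5 and 32.6 CPM at 0.28 mM, against 22.7, 35.7 and 36.6 CPM in full medium. It changed by 0.41 (SE 0.112, adjusted p = 0.012) at 0.20 mM, lost without 0.20 mM replicate 1 or 2 or full medium replicate 1 (adjusted p up to 0.0996). TOP2A, which untangles sister chromatids, had 359, 397 and 383 CPM at 0.04 mM, 337, 437 and 359 CPM at 0.12 mM, 388, 444 and 433 CPM at 0.20 mM and 338, 385 and 421 CPM at 0.28 mM, against 296, 379 and 410.0 CPM in full medium. It changed by 0.23 (SE 0.0718, adjusted p = 0.0282) at 0.20 mM. That call was lost without any 1 of the 3 libraries at 0.20 mM or full medium replicate 1 or 2 (adjusted p up to 0.164). It was also lost in 3 of 10 other alternatives with the block (adjusted p up to 0.662).

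The direction of change varied with the base composition of the transcripts. At 0.20 mM the 11 genes that rose had 34.2 to 40.8% GC in their longest transcript and the 11 that fell 48.3 to 59.6%, with no overlap. Over the 56 genes, Spearman's rho between GC content and log2 change was -0.73 at 0.04 mM, -0.74 at 0.12 mM, -0.86 at 0.20 mM and -0.52 at 0.28 mM. Over the 13534 tested genes with a known GC content it was -0.22, -0.21, -0.45 and -0.12 at the same concentrations. Genes are not independent replicates, and all points come from the same libraries, so these values are descriptions. At 0.20 mM, of tested genes under 40% GC 22.9% rose and 0.455% fell, while 10 of the 16 mitotic genes in that range rose. Of tested genes at 50% GC or more 1.55% rose and 13.8% fell, and 9 of the 16 mitotic genes there fell.

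A fit with an offset per library for GC content and length brought rho over all genes to -0.012, -0.013, -0.026 and -0.018 in order of rising glutamine. The offset was estimated from these same genes, so a rho near 0 over all of them was built in. It takes out any change that follows GC content or length, whatever its source. Over the mitotic genes it left -0.60, -0.61, -0.67 and -0.41. In that fit 17 fell and none rose at 0.04 mM, 13 fell at 0.12 mM, 8 fell and 1 rose at 0.20 mM and 2 fell at 0.28 mM, against 6.13% lower and 5.29% higher among all genes at 0.04 mM, 4.21% lower and 3.36% higher at 0.12 mM, 3.96% lower and 2.92% higher at 0.20 mM, and 0.803% lower and 0.991% higher at 0.28 mM. TTK was the gene that still rose at 0.20 mM (0.39, adjusted p = 0.0188 by edgeR). CDK1, CENPE and KIF20B did not pass there (0.20, adjusted p = 0.129, 0.21, adjusted p = 0.064 and 0.18, adjusted p = 0.144). HMMR, at 36.7% GC, fell at 0.20 mM once the offset was in place (-0.30, adjusted p = 0.0125). CDC20, at 57.9% GC, kept -0.63, adjusted p = 1.32e-05 at 0.04 mM and -0.46, adjusted p = 7.61e-04 at 0.20 mM. PLK1 did not pass at 0.20 mM with the offset (-0.23, adjusted p = 0.066).

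**Figure D3:**
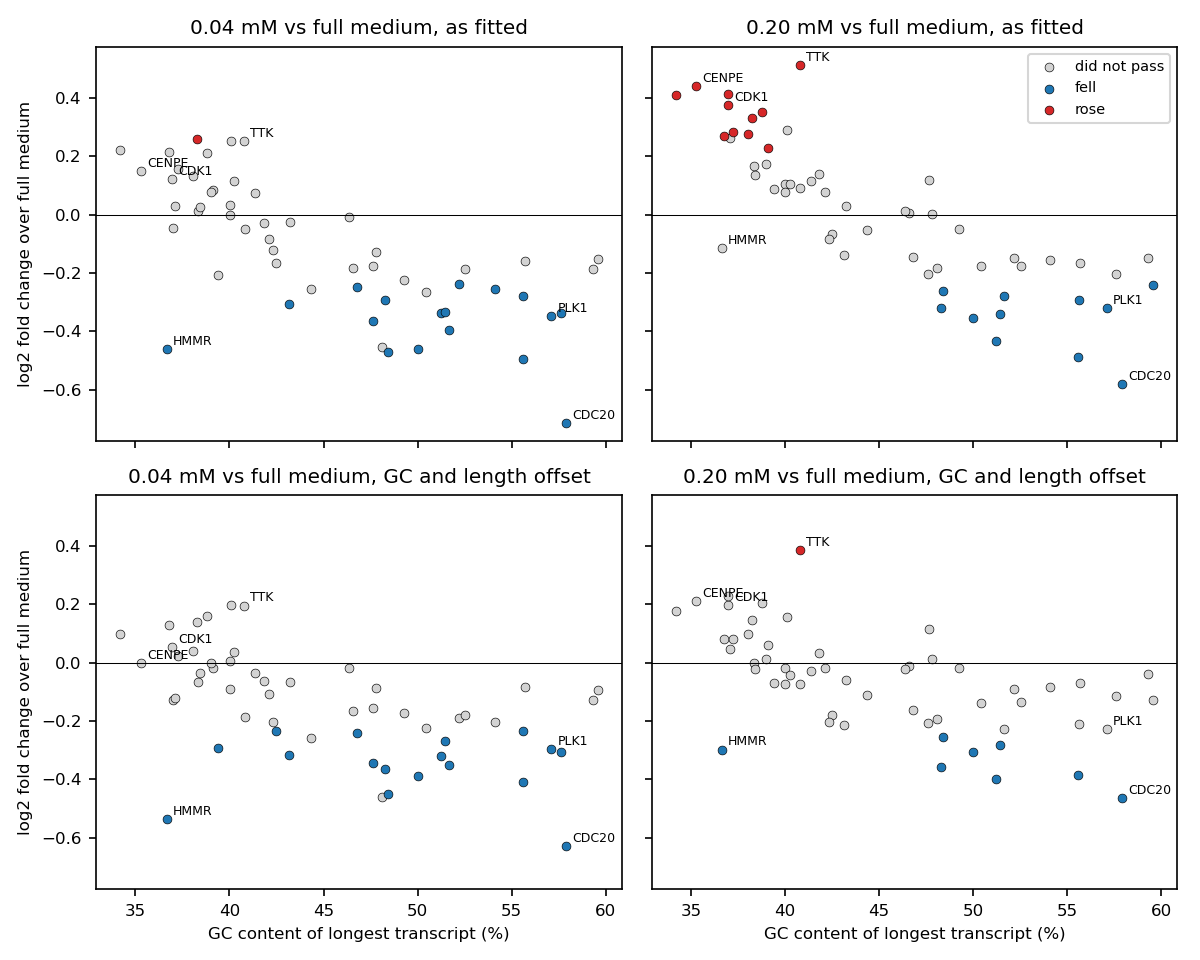
Log2 fold change over full medium (vertical axis) of the 56 genes against the GC content of the longest transcript (%), at 0.04 mM (left) and 0.20 mM (right), as fitted (top) and with an offset per library for GC content and length (bottom). Blue genes fell, red genes rose and grey genes did not pass at adjusted p under 0.05. At 0.20 mM Spearman's rho is -0.86 as fitted and -0.67 with the offset, and 11 red genes become 1.

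Scaling to the ERCC spike-ins, which were added to a fixed mass of RNA, moved the median of all genes to -0.18 at 0.12 mM and -0.13 at 0.28 mM, and to 4.75e-04 at 0.04 mM and -0.045 at 0.20 mM. The median of the 56 genes was then -0.17, -0.30, -0.051 and -0.15 in order of rising glutamine. On this scale 5 fell at 0.04 mM (1.62% of all genes), 17 at 0.12 mM (8.17%), 4 at 0.20 mM (2.02%) and 3 at 0.28 mM (0.738%), by edgeR with the block. None of the 56 rose, where 2.04%, 0.55%, 1.02% and 0.13% of all genes did. CDC20 and AURKB were among those that fell at all 4 concentrations.

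Between the limited concentrations few genes differed. At 0.04 against 0.28 mM none of the 56 passed with the block by edgeR or DESeq2, where 0.0289% of all genes fell and 0.0145% rose in edgeR and DESeq2 called 0.166% of all genes. At an unadjusted p under 0.05 in the blocked edgeR fit there were 16 of the 56, against 9.02% of all genes. Without the block 1 of the 56 had an unadjusted p under 0.05 there, as did 2.05% of all genes. Along log2 glutamine in the 12 limited libraries neither any of the 56 nor any other tested gene passed in edgeR with the block. At an unadjusted p under 0.05 in that fit there were 18 of the 56, against 7.69% of all genes. DESeq2 with the block called 2 of the 56 at an adjusted p under 0.05, against 0.174% of all genes. At 0.20 against 0.28 mM 4 of the 56 rose and none fell, where 0.535% and 0.166% of all genes did so. They were CENPE at 0.39 (SE 0.0768, adjusted p = 0.0121), CDK1 at 0.36 (SE 0.0885, adjusted p = 0.0442), KIF18A at 0.46 (SE 0.112, adjusted p = 0.0442) and KIF20B at 0.32 (SE 0.0767, adjusted p = 0.0442). Without the block 1 of the 56 had an unadjusted p under 0.05, as did 2.13% of all genes. With the GC and length offset all 4 missed the threshold, and CENPE then had 0.20, adjusted p = 0.469.

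Of the 56 genes, 27 passed in none of the comparisons with full medium. Among them were all 4 checkpoint genes other than TTK (BUB1, BUB1B, BUB3 and MAD2L1). BUB1B, which encodes the checkpoint protein BubR1, had 78.3, 72.5 and 78.4 CPM at 0.04 mM, 74.7, 78.3 and 64.6 CPM at 0.12 mM, 77.6, 86.5 and 74.8 CPM at 0.20 mM and 73.7, 86.6 and 79.9 CPM at 0.28 mM, against 65.6, 85.7 and 83.8 CPM in full medium. Its groups overlapped at each concentration, and its log2 change was -0.03 at 0.04 mM and 0.03 at 0.20 mM. The kinetochore genes CENPA, CENPF, NDC80 and SPC25 were also in this set, as were the motors KIF11, KIF23, KIF2C and KIF4A, the spindle proteins ASPM and DLGAP5, and anillin (ANLN). At 0.04 mM the 38 genes that did not pass had log2 changes from -0.45 to 0.25. No gene fell in one comparison with full medium and rose in another. Genes that fell at 0.04, 0.12 and 0.20 mM numbered 9: AURKB, CDC20, CDC25A, CDCA3, CDCA8, FOXM1, KIF20A, PLK1 and UBE2C. The share of all genes that fell at these concentrations together was not counted.

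Summed over the 57 genes, the level was 7963 ± 763 CPM at 0.04 mM, 8122 ± 808 CPM at 0.12 mM, 8551 ± 690 CPM at 0.20 mM and 8581 ± 617 CPM at 0.28 mM, against 8873 ± 492 CPM in full medium (SD, n = 3 each). These means differ by less than 2 SDs, which ignore the replicate number. In order of replicate number the sum was 8407, 8400 and 7082 CPM at 0.04 mM, against 8309, 9212 and 9099 CPM in full medium. The difference within replicate numbers was not tested.

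Other genes of the mitotic programme that are not among the 57 numbered 124, all of them tested. Of them 26 fell and 4 rose at 0.04 mM, 16 fell and 2 rose at 0.12 mM, 18 fell and 11 rose at 0.20 mM, and 2 fell and none rose at 0.28 mM. Of all genes 6.23% fell and 7.21% rose at 0.04 mM, 3.9% fell and 4.41% rose at 0.12 mM, 7.15% fell and 7.67% rose at 0.20 mM, and 0.846% fell and 1.23% rose at 0.28 mM, and the shorter lists named next are to be read against the same shares. Among the brakes and partners of CDK1, 3 of 11 fell at 0.04 mM: the inhibitory kinase PKMYT1 with a log2 change of -0.42 (adjusted p = 0.00115), and the CDK-binding CKS2 and CKS1B with -0.41 (adjusted p = 0.00433) and -0.31 (adjusted p = 0.0119). Of 17 subunits and regulators of the anaphase-promoting complex 2 fell, ANAPC15 with -0.56 (adjusted p = 0.00612) and separase (ESPL1) with -0.33 (adjusted p = 0.0206). Among the MuvB, B-MYB and FOXM1 partners 4 of 14 fell, with B-MYB (MYBL2) at -0.43 (adjusted p = 1.16e-04), E2F4 at -0.30 (adjusted p = 0.00566) and TFDP1 at -0.23 (adjusted p = 0.012).

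Of 34 further kinetochore and centromere genes 4 fell and 1 rose at 0.04 mM. CENPM changed by -0.66 (adjusted p = 0.00361), the centromeric histone chaperone HJURP by -0.30 (adjusted p = 0.00574) and ZWINT by -0.33 (adjusted p = 0.0118), while KNTC1 rose by 0.27 (adjusted p = 0.0483). Of 5 further kinesins 3 fell, KIFC1, KIF18B and KIF22 (-0.38 (adjusted p = 0.00146), -0.36 (adjusted p = 0.00263) and -0.31 (adjusted p = 0.00937)). Of 29 spindle and centrosome genes 9 fell, led by TACC3 at -0.51 (adjusted p = 7.55e-05), the importin KPNA2 at -0.33 (adjusted p = 0.00365) and PSRC1 at -0.47 (adjusted p = 0.00419). Of 14 further condensin and cohesin genes 3 rose and 1 fell. The cohesin loader NIPBL, PDS5A and STAG2 rose by 0.29 (adjusted p = 0.00768), 0.23 (adjusted p = 0.0194) and 0.21 (adjusted p = 0.0312), and SMC1A changed by -0.24 (adjusted p = 0.014).

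Genes of DNA replication and S phase act in the step before G2. Of 46, 26 fell at 0.04 mM, 22 at 0.12 mM, 21 at 0.20 mM and 5 at 0.28 mM, and none rose at any concentration. Their median log2 change was -0.26, -0.26, -0.23 and -0.19 in the same order. MCM2 and MCM7 of the replicative helicase changed by -0.59 (adjusted p = 9.29e-05) and -0.43 (adjusted p = 2.90e-04) at 0.04 mM and the DNA ligase LIG1 by -0.47 (adjusted p = 1.45e-04). With the GC and length offset 22, 21, 16 and 6 of the 46 fell. Of 17 genes of G1 and the G1/S step 3 fell and 2 rose at 0.04 mM. CDK4 changed by -0.30 (adjusted p = 0.0129), SKP2 by -0.26 (adjusted p = 0.019) and E2F2 by -0.47 (adjusted p = 0.0481), while CDK6 rose by 0.27 (adjusted p = 0.00994) and cyclin D2 (CCND2) by 0.24 (adjusted p = 0.0354). The difference between these lists and the mitotic genes was not tested.

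**Figure D4:**
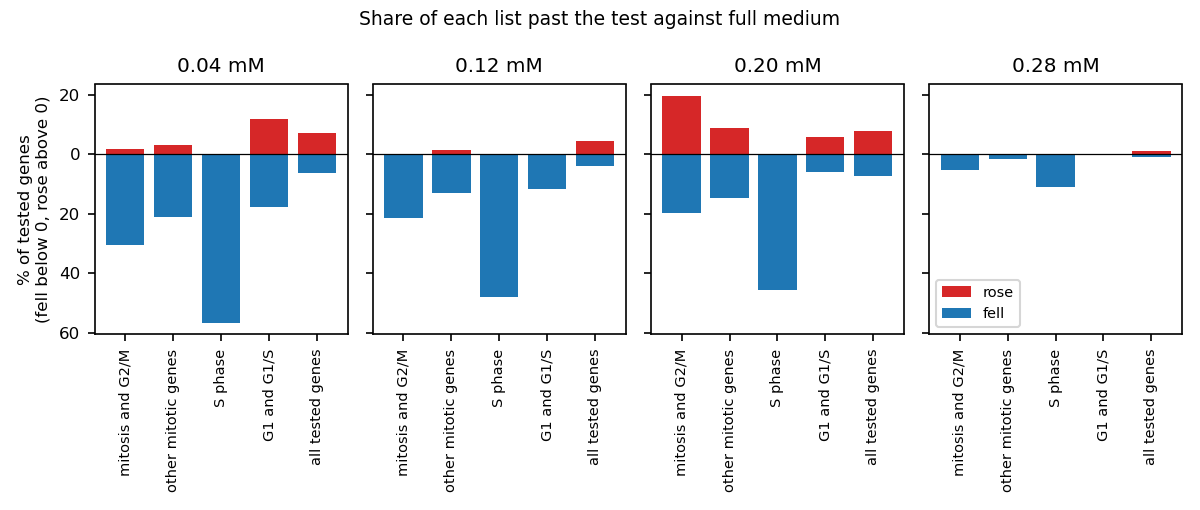
Percentage of tested genes in each list that rose (red, above 0) or fell (blue, below 0) against full medium at 4 glutamine concentrations (mM), with all 13828 tested genes as the last bar. At 0.04 mM 17 of 56 mitosis and G2/M genes and 26 of 46 S phase genes fell, and at 0.20 mM 11 of the 56 rose and 0 of the 46.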

How the data were processed

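RNA of 15 MCF10A libraries was sequenced after ribosomal depletion (KAPA HyperPrep with RiboErase, ERCC spike-ins added), per the labels' protocols. The authors deposited raw counts per gene for 62754 genes and 92 spike-ins; builds GRCh38.p14 and hg38 are named per the submitters' processing notes, and the sources used here name no aligner, counter or strand setting. Each of the 15 columns was matched to a sample by name, with 0 unmatched.

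Counts were tested with edgeR 4.0.16 in R 4.3.3: filterByExpr (minimum count 10, minimum total 15), TMM, 1 quasi-likelihood fit of all libraries, Benjamini-Hochberg over 13828 genes. The planned fit had no block. With group means removed, all 30 pairs of libraries sharing a replicate number correlated above 0.1 (r 0.184 to 0.489). Pairs from different groups with different numbers reached at most 0.0549 (lowest -0.406). The closest library was one of the same number for 15 of 15. Once means of 3 libraries are removed, a positive correlation for the same number pushes those for other numbers down. Part of this contrast is therefore built in. The replicate numbers come from the labels, and the replicate number was added as a block. The SE given with a log2 change is the size of that change divided by the square root of the test's F statistic. It is therefore no measure of precision separate from the test. CPM use TMM-scaled library sizes. Length (merged exons), GC content (longest transcript) and exon overlap came from GENCODE 29 and coordinates from RefSeq GRCh38.p14. Alternatives were DESeq2 1.42.0, its size factors, ERCC scaling, other filters, only the groups compared, thinning to 3704170 counts, a spline offset (4 degrees of freedom) on GC content and length, and leaving out libraries. The code was tested on simulated data. Genes and lists were chosen with earlier results of these data known. Values per library are given for 12 set genes (CDK1, CCNB1, CCNA2, CDC20, PLK1, AURKA, BUB1B, BIRC5, TOP2A, MKI67, FOXM1 and UBE2C), for those with the smallest adjusted p (6 lower and up to 4 higher at 0.04 mM, up to 3 more each way elsewhere), and up to 3 each way exemplify a list. Tables were handled in Python 3.11.15 and figures drawn with matplotlib 3.10.9.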

Additional observations from a re-analysis of the deposited data

Results flagged for a closer look

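The response at 0.20 mM differed from that at 0.28 mM in 4 genes, by edgeR with the replicate block over all genes. The log2 difference of 0.20 over 0.28 mM was 0.36 for CDK1, 0.39 for CENPE, 0.46 for KIF18A and 0.32 for KIF20B. Each was higher at 0.20 mM in 3 of 3 pairs that share a replicate number, which is no separate support, since the blocked fit used these pairs. CDK1, KIF18A and KIF20B missed the threshold without each of the 6 libraries in turn (adjusted p up to 0.337, 0.306 and 0.354), and CENPE missed it in 5 of 6 such fits (up to 0.253) and passed without 0.20 mM replicate 2. All 4 missed it with ERCC scaling, with libraries thinned to equal depth, without the third replicates and with the GC and length offset.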

How the results depend on the processing

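With the replicate block 18, 12, 22 and 3 of the 56 genes passed against full medium, in order of rising glutamine, 4 at 0.20 against 0.28 mM, and 0 at 0.04 against 0.28 mM and along log2 glutamine. Without the block 0 passed in each of these 7, and with no filter on low counts 1 each at 0.04, 0.12 and 0.20 mM. Around the blocked fit, ERCC scaling gave 5 at 0.04 mM, 4 at 0.20 mM and 0 at 0.20 against 0.28 mM. Fitting only the groups compared gave 11 at 0.04 mM, 3 at 0.12 mM, 2 at 0.04 against 0.28 mM and 23 at 0.20 against 0.28 mM, and the slope over all 15 libraries gave 21. Without the third replicates there were 10 at 0.04 mM, 4 at 0.12 mM, 0 at 0.28 mM and 0 at 0.20 against 0.28 mM. Without the 2 libraries over 1% mitochondrial rRNA 7 passed at 0.12 mM. No filter on low counts gave 2 at 0.04 against 0.28 mM, 7 at 0.20 against 0.28 mM and 2 for the slope. Thinning gave 0 at 0.20 against 0.28 mM. The GC and length offset gave 9 at 0.20 mM, 0 at 0.20 against 0.28 mM and 2 for the slope, and DESeq2 gave 2 for the slope. The cause was not tested. Leaving out 1 library gave 10 to 26 at 0.04 mM (10 without 0.04 mM replicate 2), 6 to 15 at 0.12 mM (6 without full medium replicate 3, 7 without 0.12 mM replicate 3), 11 to 21 at 0.20 mM (11 without 0.20 mM replicate 1, 13 without 0.20 mM replicate 3; 14 fell and 4 rose without full medium replicate 1, 6 fell and 15 rose without full medium replicate 3), 0 to 7 at 0.28 mM and 0 to 1 at 0.20 against 0.28 mM. At 0.28 mM the count was 0 without 0.28 mM replicate 1 or 3 or full medium replicate 3, 1 without full medium replicate 2 and 7 without full medium replicate 1. Among the named genes no change that passed in the blocked fit or in the alternative had the other sign in the other fit. Of the values, 2244 kept their side of the threshold, 258 lost it and 48 gained it. A change of sign where neither fit passed was counted as kept. Calls that passed in all alternatives with the block were those of CDC20 and AURKB at 0.04, 0.12 and 0.20 mM, UBE2C, KIF20A and HMMR at 0.04 mM, CDC25A at 0.12 mM and CDCA3 at 0.20 mM. Depth limits the low genes most: SPC25 had 45 counts in its shallowest library, and PRC1 7.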

Other observations

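On the log2(CPM + 1) scale a median of 50.3% of a gene's sum of squares lay between replicate numbers and 21.3% between glutamine groups, and in 41 of the 56 genes the share between replicate numbers was the larger one.

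Exons shared with other genes leave some members uncertain beyond NUSAP1 and PRC1. LCORL, with 1608 counts in all libraries, overlaps 33.1% of the exons of NCAPG, which had 15273 counts. IFT80 and TRIM59, with 597 and 1576 counts, overlap 25.6% of SMC4, which had 31232.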
